A study of Homo sapiens with 6 samples.

Results

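SMAD2 binding at the replication-dependent histone gene clusters was read from ChIP-seq (sequencing of the DNA that an antibody against SMAD2 pulls down) in Hs578T, an established line of human triple-negative breast cancer cells. The members are all summits, the single bases of highest signal of each peak, that lay in 4 windows of hg19. On chromosome 6 these run from 26015000 to 26290000 (the first chromosome 6 window, 275 kb) and from 27090000 to 27870000 (the second, 780 kb). On chromosome 1 they run from 149750000 to 149870000 (the first chromosome 1 window, 120 kb) and from 228610000 to 228650000 (the second, 40 kb). The windows hold 225 of the 79310 summits of all lists, which joined into 92 of 36648 binding sites. A site is a chain of summits, from any library, with gaps of at most 250 bp. The windows were selected on presence by library and on the rank of the peak score within each list, with the contrast of the treatments in view. Activin A (50 ng/ml, 1.5 h) was given to every culture. The activin group had nothing else (2 libraries), and the palbociclib group was also treated with palbociclib (1 µM, 24 h; 2 libraries). Palbociclib is an inhibitor of CDK4 and CDK6, the kinases that cyclin D activates. No ChIP library without activin was analysed here, and the labelled cell line could not be checked against marker genes in lists of summits.

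Replication-dependent histone genes encode the core histones H2A, H2B, H3 and H4 and the linker histone H1, which package newly made DNA. They lie in clusters, are transcribed mainly in S phase, and their transcripts end in a stem-loop rather than a poly(A) tail. Their activation is known to depend on NPAT, a coactivator phosphorylated by cyclin E with CDK2 at the histone locus bodies that form on the clusters. SMAD2 carries the signal of activin and TGF-β receptors to chromatin. The receptor kinase phosphorylates it, and it then binds with SMAD4 and other factors.

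In the RefSeq gene order (GRCh38.p14), 68 replication-dependent histone symbols lie on chromosomes 1 and 6. These are H1-1 to H1-6 and the numbered H2AC, H2BC, H3C and H4C symbols, and histone genes with symbols of another form were not counted. A run of 32 of them, from H1-1 to H4C8, holds 5 linker histone genes, 4 H2A, 8 H2B, 7 H3 and 8 H4 genes. A run of 5 from H2BC11 to H2AC12 and a run of 16 from H2BC13 to H2BC17 follow on the same chromosome, with 5 protein-coding and 51 tRNA genes between them. On chromosome 1 a run of 11 goes from H2BC18 to H2AC21, and H2AC25 and H2BC26 stand as a separate pair among the symbols counted. A pair on chromosome 6, H2AC1 and H2BC1, is set apart from H1-1 by 4 other protein-coding genes. The summits are on hg19, of which no genome or annotation was used here, so no site was assigned to a gene.

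Divergent pairs show how these promoters are built. The stretches between the starts of the genes of 2 divergent pairs on chromosome 1 are given, because each of the chromosome 1 windows had a single leading site. They come from RefSeq, are written 5′ to 3′ on the plus strand, and have GRCh38.p14 positions that cannot be set beside the hg19 summits. Capitals mark the motifs searched on both strands: AGAC (the core of the SMAD box), GGCGC (a GC-rich SMAD motif), CCAAT (the CCAAT box), TATAAA (the TATA box), ATTTGCAT (the octamer bound by OCT1) and TGANTCA (the AP-1 motif). None of the motifs contains another. The first stretch is chr1:228457874-228458102 and the second is chr1:149886683-149886917.
H2AC25/H2BC26: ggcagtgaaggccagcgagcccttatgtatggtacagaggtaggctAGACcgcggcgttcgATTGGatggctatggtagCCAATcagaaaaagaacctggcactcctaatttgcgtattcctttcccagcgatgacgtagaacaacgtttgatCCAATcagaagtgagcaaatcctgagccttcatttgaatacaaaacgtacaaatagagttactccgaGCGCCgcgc
H2BC21/H2AC20: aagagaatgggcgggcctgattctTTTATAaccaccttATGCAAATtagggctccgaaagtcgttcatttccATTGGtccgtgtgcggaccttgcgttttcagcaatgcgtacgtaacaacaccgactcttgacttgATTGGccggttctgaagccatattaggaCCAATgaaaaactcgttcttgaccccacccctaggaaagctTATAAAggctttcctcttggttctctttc

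The H2AC25/H2BC26 stretch of 229 bases holds 1 AGAC, 1 GGCGC and 3 CCAAT matches, and the H2BC21/H2AC20 stretch of 235 bases holds 3 CCAAT, 2 TATAAA and 1 octamer matches. Over the 250 bases before the start, 63 of the 68 symbols matched the promoter table, with 67 promoters. CCAAT was found in 58 of these 67 promoters, or 86.6%, against 32.0% of all 35116 promoters of the table. It was in all 16 H2A, 20 H2B, 13 H3 and 6 H1 promoters and in 3 of 12 H4 promoters. The octamer was in 27 promoters (40.3%, against 1.63% of all), of which 15 were H2B and 11 H2A promoters. TATAAA was in 44 (65.7%, against 10.7%). The short AGAC core was in 58 (86.6%, against 77.5%) and GGCGC in 32 (47.8%, against 44.5%). TGANTCA was in 1 (1.49%, against 6.57%). The stretches of 229 and 235 bases are shorter than the 250 bases searched, so the H2A and H2B promoters of such a pair share them. A match there was counted once for each gene, and the promoters are not all separate stretches. How many other pairs overlap was not counted. These shares describe the letters of the promoters and were not linked to the summits.

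The 4 lists differed in length, with 25553 summits in the first activin library, 7241 in the second, 27290 in the first palbociclib library and 19226 in the second. Read depth is unknown. The list of activin replicate 2 stands apart by its length. Nothing in the labels says that replicates were grown separately, so their spread may be technical. The peak score is −log10 of a p- or q-value and grows with depth, so it was compared by rank and not as a level.

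In activin replicates 1 and 2 the windows held 67 and 39 summits, against 68 and 51 in the palbociclib libraries. As shares of the lists these were 0.262% (Wilson 95% interval 0.207 to 0.333), 0.539% (0.394 to 0.735), 0.249% (0.197 to 0.316) and 0.265% (0.202 to 0.349), where the intervals cover counting error only. Activin replicate 2 was the high value, and the other 3 libraries overlapped. The mean share was 0.400% ± 0.195 with activin alone and 0.257% ± 0.0114 with palbociclib added (SD, n = 2 each). The log2 ratio of palbociclib to activin was -0.55, and -0.03 without activin replicate 2. Without activin replicate 1 it was -1.07. In lists cut to equal length it was -0.21.

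Summits of the windows took a larger share of the top of each list than of the whole list. The choice of members used these score ranks, so this is a description. The best 1% of each list held 12 and 3 window summits in the activin libraries, and 12 and 11 in the palbociclib libraries. They made up 4.71%, 4.17%, 4.41% and 5.73% of those best summits, where the windows held 0.249% to 0.539% of the whole lists. The windows' median score was 26.2, 14.8, 29.1 and 49.6 in the same order of libraries, against 13.8, 8.96, 14.9 and 15.6 for whole lists.

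**Figure D1:**
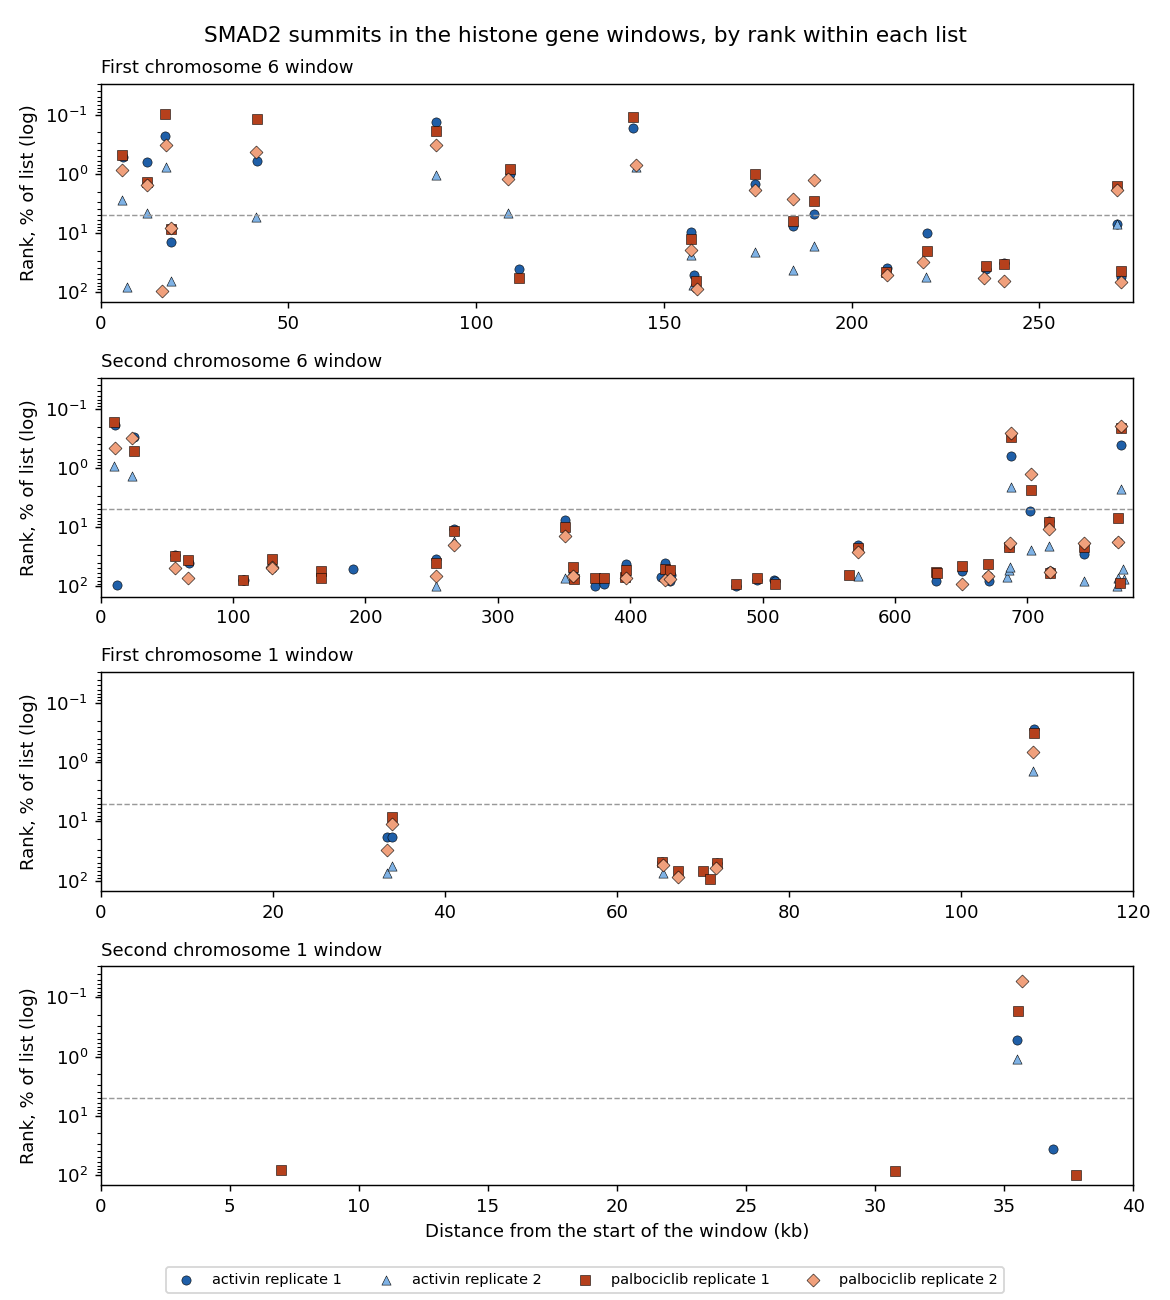
Summits of the 4 windows, best summit of each site, by distance from the window's start (kb) and by rank as a percentage of the library's list (log axis, strongest at the top). The dashed line marks the best 5% of a list. The strong summits of the second chromosome 6 window lie at its ends, and each chromosome 1 window has a single site above the line.

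Of the 92 sites, 26 were present in all 4 libraries, which is 28.3%, against 15.9% of all sites. Another 15 were missing only from activin replicate 2 (16.3%, against 22.5%), and the best score at these 15 was between 8.08 and 43.8. Both replicate 1 libraries alone held 13 sites (against 12.7% of all sites) and both replicate 2 libraries alone held 3 (against 0.404%). A single library held 29 sites. The 8 seen only in activin replicate 1 (8.70%, against 13.4% of all sites) scored 2.47 to 26.2. The 6 of activin replicate 2 (6.52%, against 1.93%) scored 2.61 to 8.96. The 11 of palbociclib replicate 1 (12.0%, against 18.9%) scored 2.17 to 12.0. The 4 of palbociclib replicate 2 (4.35%, against 5.43%) scored 2.65 to 198, the last at a strong region that the other libraries placed nearby.

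Few sites were held by both libraries of 1 treatment alone. A single site was palbociclib-only, in both palbociclib libraries and neither activin library (1 of 92, against 3.56% of all sites). It lay at 149817143 to 149817152 in the first chromosome 1 window, with weak scores of 6.83 and 4.24 in palbociclib replicates 1 and 2. The nearest activin summit was 1794 bp away. A single site was activin-only (1 of 92, against 0.344%), at 26172859 to 26173017 in the first chromosome 6 window. It scored 12.5 and 5.25 in activin replicates 1 and 2, and a palbociclib replicate 1 summit with a score of 113 lay 528 bp away. Counted as absent only where no summit of the other treatment lay within 2000 bp, 0 sites of either kind were left. No share over all sites is given under that rule.

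**Figure D2:**
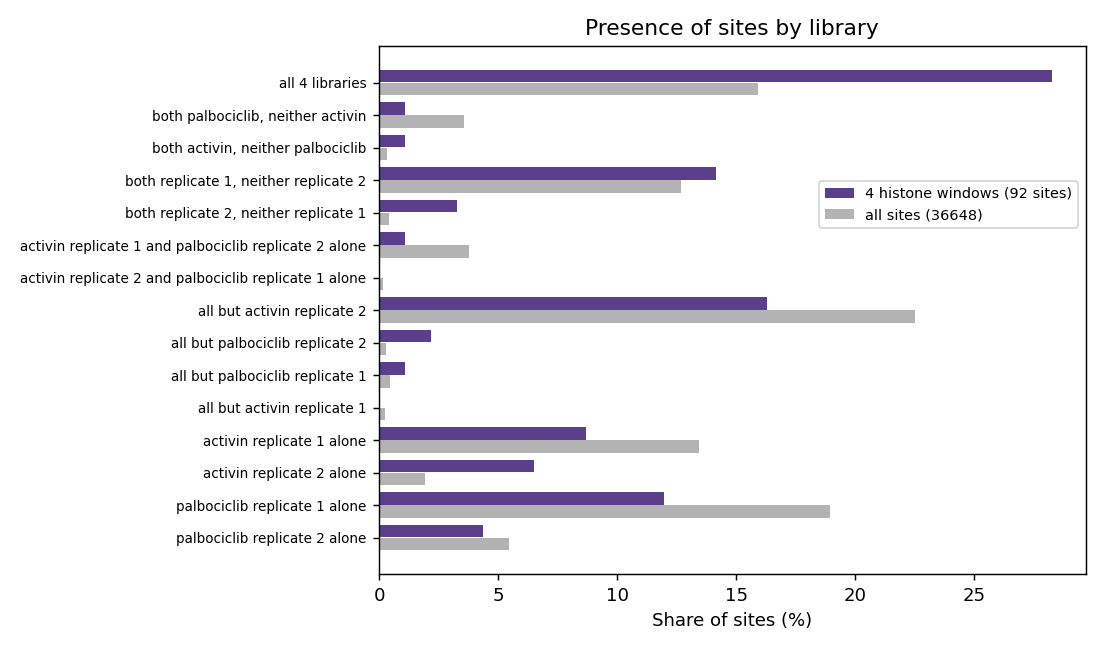
Share of sites (%) by the libraries that held them, for the 92 sites of the windows and for all 36648 sites. Sites of all 4 libraries make up 28.3% of the first and 15.9% of the second, and sites of 1 treatment alone are 1 of 92 in either direction.

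Of the 26 common sites, 9 had a mean percentile under 5 (34.6%, against 3.98% of all 5829 common sites). The percentile is the rank of the score over all common sites of the genome, from 0 for the strongest to 100 for the weakest. These 9 sites had mean percentiles of 0.845 to 4.83, and 7 of them were under 5 in every library.

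Of the 9, 5 lay in the first chromosome 6 window. The strongest was at 26032197 to 26032298, which ranked 59 and 55 in activin replicates 1 and 2, against 27 and 64 with palbociclib. Its scores were 230, 60.3, 497 and 215. The next was at 26104280 to 26104312, with ranks of 34 and 77 and of 52 and 63. At both sites the treatments overlapped. The site at 26020722 to 26020839 ranked 132 and 198 after activin and 131 and 166 with palbociclib. The site at 26027369 to 26027450 ranked 160 and 335, and 370 and 297. At 26056410 to 26056529 the ranks were 158 and 393 after activin and 33 and 82 with palbociclib, so both palbociclib libraries placed it higher.

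The second chromosome 6 window had leading sites at 27860928 to 27860942 and at 27777873 to 27777935. The first ranked 106 and 167 in the activin libraries and 57 and 37 in the palbociclib libraries. The second ranked 159 and 152, and 83 and 49. At these sites the groups did not overlap in percentile, and both palbociclib libraries placed them higher.

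Each chromosome 1 window had 1 leading site. In the second window, the shortest of the 4, it lay at 228645492 to 228645676 and ranked 136 and 79 after activin and 47 and 10 with palbociclib. Rank 10, in palbociclib replicate 2, was the best rank of any window summit in any list. The mean percentile was 1.76 ± 0.692 with activin alone and 0.455 ± 0.425 with palbociclib added (SD, n = 2 each). The other 4 sites of that window were each seen in 1 library, with scores of at most 26.2. The leading site of the first chromosome 1 window, at 149858315 to 149858525, ranked 71 and 102 after activin and 88 and 128 with palbociclib, and the treatments overlapped.

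Some strong regions were not among the common sites, since the summits of different libraries lay more than 250 bp apart there. At 3 regions both replicate 1 libraries had their summit at 1 place and both replicate 2 libraries at another, 520 to 938 bp away. Of the 13 replicate 1-only sites of the windows these were 3, whereas 1.08% of all 4649 such sites had a replicate 2-only site within 1000 bp. The 4649 sites were not matched for strength to the 3 regions, and all lists together held only 148 replicate 2-only sites. The contrast therefore cannot be read as a property of the windows. In the first chromosome 6 window, the site of replicate 1 ran from 26156658 to 26156732 and that of replicate 2 from 26157540 to 26157660. Its rank was 43 in activin replicate 1 and 30 in palbociclib replicate 1, and 56 and 137 in the replicate 2 libraries. In the same window, the replicate 1 summits lay at 26124077 to 26124121 (ranks 262 and 229) and the replicate 2 summits at 26123555 to 26123557 (ranks 336 and 238). In the second chromosome 6 window they lay at 27114929 to 27114932 (ranks 77 and 139) and at 27113823 to 27113991 (ranks 98 and 60). The side was not fixed, since the replicate 1 summits had the lower position in 1 region and the higher in 2. A further region had the summits of 3 libraries at 27100345 to 27100464, with ranks of 48 and 67 in activin replicates 1 and 2 and 45 in palbociclib replicate 1. The summit of palbociclib replicate 2, at rank 90, lay at 27100716.

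**Figure D3:**
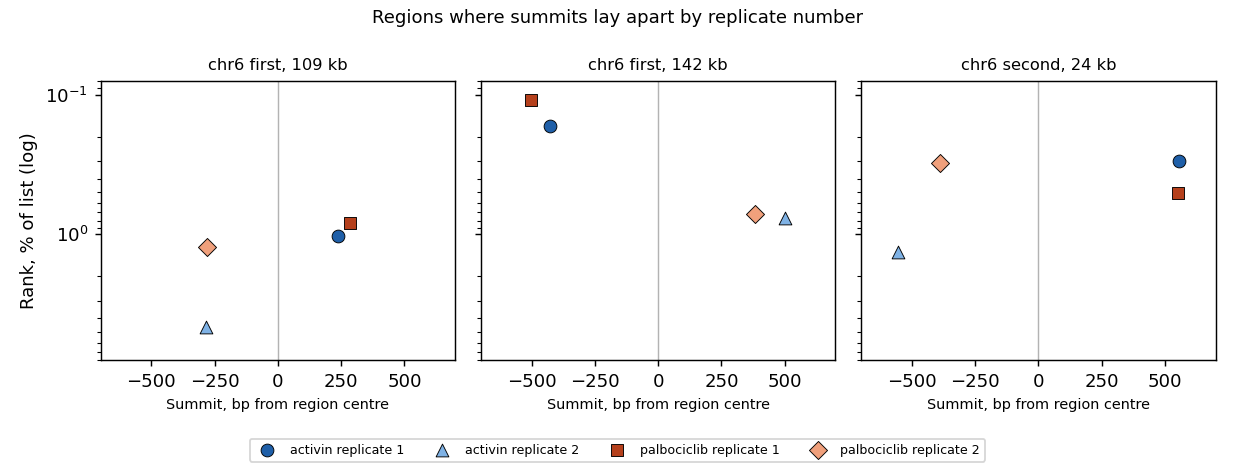
Summit positions (bp from the centre of the region) and ranks as a percentage of the list (log axis) in the 3 regions where libraries of the same replicate number shared a summit. In each panel the 2 replicate 1 libraries lie on 1 side and the 2 replicate 2 libraries on the other, all within the best 5% of their lists.

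Joined at 1000 bp, a distance chosen after the data were seen, the windows held 65 regions, of which 31 were in all 4 libraries (47.7%, against 28.8% of all regions). Of these 31, 13 had a mean percentile under 5 (against 3.89% of common regions), with 7 in the first chromosome 6 window, 4 in the second and 1 in each chromosome 1 window. Of these 13 leading regions, 5 ranked higher in each palbociclib library than in either activin library (against 25.8% of all common regions). None ranked lower in each (0 of 13, against 27.5%), and at 8 the groups overlapped. Among strong common sites joined at 250 bp, with a mean percentile under 10, 28.8% ranked higher and 34.3% lower.

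Within the common sites of the windows the summits of the 4 libraries spanned a median of 86 bp, against 46 bp over all common sites. The median distance between the summits of the replicate 1 libraries was 28 bp and between those of the replicate 2 libraries 21 bp. Between the activin libraries it was 48 bp and between the palbociclib libraries 38 bp. Over all common sites these distances were 20, 22, 26 and 16 bp in the same order. No test of these distances was made, since sites are not replicates of a treatment. Both libraries of a treatment shared an input. The labels do not say whether same-numbered libraries shared a culture or a run.

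The ranks of the 26 common sites were then compared between treatments. At 13 of them (50%, against 26.2% of all common sites) the site ranked higher in each palbociclib library than in either activin library. At 4 (15.4%, against 28.2%) it ranked lower in each, and at 9 the groups overlapped. The members were proposed with this contrast in view, so these counts are a description and were not tested. The median change in percentile, palbociclib minus activin, was -1.37, against 0.57 over all common sites, and negative values mean a stronger rank with palbociclib. Without activin replicate 2 the median was -0.41, without palbociclib replicate 2 it was -0.76, and for regions joined at 1000 bp it was -0.24. Over the 26 sites the median percentile was 30.4 and 24.2 in the activin libraries, against 20.7 and 7.40 in the palbociclib libraries. With 1 library left out a site is called more easily, so each count is set beside its own background. Without activin replicate 2, 19 of 41 common sites ranked higher and 13 lower, where 36.9% and 38.1% of all common sites were called. Without activin replicate 1 they were 16 and 7 of 26 (against 39.7% and 43.9%). Without palbociclib replicate 1 they were 13 and 6 of 27 (against 34.6% and 37.6%), while leaving out palbociclib replicate 2 gave 15 and 9 of 28 (against 35.1% and 37.8%).

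**Figure D4:**
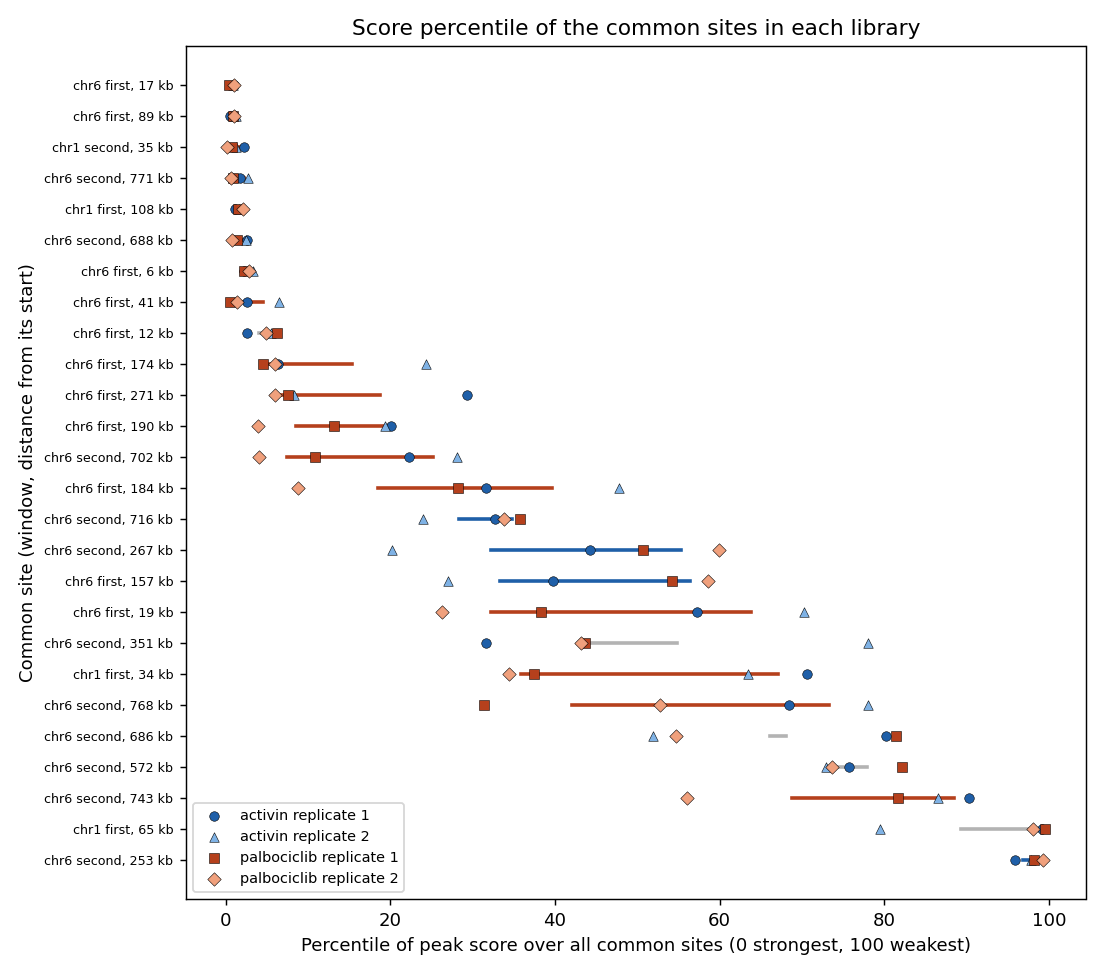
Score percentile of the 26 common sites in each library (0 strongest, 100 weakest), ordered by the mean. Bars join the group means and are red where each palbociclib library ranked the site higher (13 sites), blue where each ranked it lower (4 sites) and grey where the groups overlapped (9 sites).

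Of the 9 strongest sites 4 ranked higher and 0 lower, against 28.8% and 34.3% of all common sites with a mean percentile under 10. At these 4 sites the shift was 1.30 to 3.56 percentile points. Without activin replicate 2 these 4 changes were -0.744 at 228645492, -0.406 at 27860928, -0.630 at 27777873 and -0.690 at 26056410. Without activin replicate 1 the change at 228645492 was -0.807 and that at 26056410 was -5.41. At the other 9 of the 13 sites ranked higher the shift was 10.0 to 31.5 points. The largest gain was at 26033723 to 26033765, in the first chromosome 6 window. Its percentile was 57.3 and 70.2 after activin, against 38.2 and 26.2 with palbociclib. The group means were 63.8 ± 9.15 and 32.2 ± 8.48 (SD, n = 2 each). It lies close to the strongest site of that window, whose groups overlapped.

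Close behind was a site in the second chromosome 6 window at 27858357 to 27858512, with percentiles of 68.5 and 78.0 after activin and 31.3 and 52.7 with palbociclib. In the first chromosome 1 window the site at 149783898 to 149783907 moved from 70.6 and 63.5 to 37.4 and 34.4. Its group means were 67.0 ± 5.04 and 35.9 ± 2.12 (SD, n = 2 each). The site at 26199427 to 26199518 had 31.6 and 47.8 after activin and 28.2 and 8.75 with palbociclib, so the gap between the groups was narrower than the spread within either. At 27833094 to 27833141 the values were 90.4 and 86.6, and 81.6 and 56.0.

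The size of these gains rested in good part on single libraries. Their direction was kept with each library left out, which the call nearly fixes, since the groups did not overlap. Without activin replicate 2 the change at 26033723 went from -31.5 to -11.1, at 27858357 from -31.2 to -12.3 and at 149783898 from -31.2 to -16.4, so that the last was then the largest of the 5. At 26199427 it went from -21.2 to -5.50 without activin replicate 2 and to -11.5 without palbociclib replicate 2. At 27833094 it went from -19.6 to -6.90 without palbociclib replicate 2 and to -32.6 without palbociclib replicate 1. At 27858357 it was -20.6 without palbociclib replicate 1.

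Of the 5 largest moves the other way, 3 sites had groups that did not overlap. At 27356609 to 27356649 the percentile was 44.2 and 20.2 after activin and 50.8 and 60.0 with palbociclib. At 26172314 to 26172331 it was 39.7 and 27.0, and 54.2 and 58.6. At 27806085 to 27806212 it was 32.7 and 24.0, and 35.7 and 33.8, a narrow gap. The sites at 149815223 to 149815350 and at 27661788 to 27661924 moved by 9.47 and 3.56 points with overlapping groups. The losses were smaller without activin replicate 2, at 5.55 in place of 23.2 points at 27356609, 8.07 in place of 23.02 at 26172314 and 0.979 in place of 6.40 at 27806085. Without activin replicate 1 they were 35.1 at 27356609 and 10.7 at 27806085. By percentiles within the whole lists, whose lengths differ, 1.70% of all common sites ranked lower. There 4 of these 5 changes had the opposite sign. They were -0.262 points of the list at 26172314, -4.78 at 27806085, -9.38 at 149815223 and -19.4 at 27661788, and the fifth, at 27356609, was 2.01 with overlapping groups.

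The tenth strongest common site, at 26189147 to 26189216, shows how much 1 library can weigh. It ranked 381 in activin replicate 1, 273 and 364 in the palbociclib libraries, and 1519 in activin replicate 2. Its percentile was 6.31 and 24.4 after activin and 4.57 and 6.04 with palbociclib. Activin replicate 1 thus lay next to palbociclib replicate 2, and activin replicate 2 stood apart from the other 3 libraries. The change of -10.0 was -0.425 without activin replicate 2 and -19.1 without activin replicate 1.

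The windows differed in what they held, though the counts are small. Over all sites 15.9% were common. Of all common sites 26.2% ranked higher, 28.2% ranked lower and 22.0% fell in the weakest 25% (a mean percentile of 75 or more). In the first chromosome 6 window 11 of 27 sites were common, 6 of them ranked higher with palbociclib and 1 lower, and 0 fell in the weakest 25% of common sites. In the second chromosome 6 window 11 of 52 sites were common, 5 ranked higher (45.5%) and 3 lower (27.3%), and 3 fell in the weakest 25% (27.3%). The first chromosome 1 window had 3 common sites of 8, of which 1 ranked higher and 0 lower, and the second had 1 of 5, which ranked higher.

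The second chromosome 6 window held its strong sites at its ends. In the first 100 kb there were 7 sites, with best scores of 239 and 55.6 in the activin libraries and 452 and 219 in the palbociclib libraries. In the last 100 kb there were 14 sites, with best scores of 207, 40.1, 416 and 252. Between them, over 580 kb, there were 31 sites, with best scores of 93.7, 17.4, 130 and 61.2. None of these 31 was in the best 5% of any list, and at 27 of them the best score was under 30. Such scores are ordinary, since the median scores of the whole lists were 8.96 to 15.6. Whether this middle is the stretch between the histone gene runs that end at H2AC12 and start at H2BC13 was not checked. Activin replicate 2 had 4 of the 31 sites, 2 of 7 at the first end and 12 of 14 at the last. The division into ends and middle was made after the data were seen. Of the 4 sites that ranked lower with palbociclib, 2 lay in the middle. The middle held 4 of the 26 common sites. Without it the counts were 13 higher and 2 lower, against 26.2% and 28.2% of all common sites.

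Taking sites within 5000 bp of the next as a run, 39 of 92 sites (42.4%) were in runs of at least 3, against 59.2% of all sites. The longest run had 6 sites over 5189 bp, from 27857798 to 27862987 on chromosome 6, and included 2 of the sites ranked higher with palbociclib. A run of 4 sites from 26027369 to 26033765 included both the strongest site and the site with the largest gain.

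At the edges of the windows, the nearest summit inside the start of the first chromosome 6 window was 5722 bp in, with a score of 167, and the nearest outside was 21922 bp out, with a score of 36.3. At the end of the second chromosome 6 window the nearest summits were 7013 bp inside, with a score of 5.52, and 804 bp outside, with a score of 4.41. The end of the first chromosome 1 window had summits 11475 bp inside, with a score of 222, and 1193 bp outside, with a score of 85.7. The second chromosome 1 window had weak summits inside both edges, with scores of 4.49 and 2.17.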

How the data were processed

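SMAD2 ChIP-seq of Hs578T cells was deposited as 1 summit list for each of 4 libraries, 2 per treatment; the 2 input libraries were not analysed here. The submitters' processing notes name hg19, Bowtie 1.1.0, Picard and MACS2 2.0.9, without roles or settings. Per the labels, each treatment had its own input as the control of peak calling, so input and treatment cannot be told apart. The deposited score is the authors' −log10 of a p- or q-value. It was read as a q, because the lowest scores, 1.31 to 1.40, lie just above −log10 of 0.05. Sequencing depth is unknown.

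Sites, ranks and percentiles were computed over the whole genome, and a site's score was that of its best summit. A site was called where the percentiles of the groups did not overlap. No test was made, because the members were chosen by these ranks and each group has only 2 libraries. The sites named are the 10 strongest common sites, the 5 largest changes each way, the best site of each window and all sites of 1 treatment; others were chosen after their values were seen. The members and gene lists were chosen with earlier results of these data known. The joining and ranking were tested on simulated data with well-separated sites, closely placed summits and lists of similar length. That test does not cover regions whose summits lie apart, or lists as unequal as these. Promoter sequences came from RefSeq (GRCh38.p14). The alternatives were the joining distance, a score minimum, equal-length lists, wider windows, summed scores, whole-list percentiles, a replicate block and each library left out. The software was Python 3.11.15 with numpy 2.4.6 and pandas 2.3.3; scipy 1.17.1 gave the intervals and matplotlib 3.10.9 the figures.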

Additional observations from a re-analysis of the deposited data

How the results depend on the processing

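The count of sites ranked higher with palbociclib stayed within 1.5 times of 13 under every alternative run, whereas the count ranked lower did not. With 1 library left out the count ranked higher can hardly fall, so this does not measure steadiness. It was then 13 to 19 of 26 to 41 common sites, against 34.6% to 39.7% of all common sites. In the main comparison that background was 26.2%. The count ranked lower was 4 in the main comparison, against 28.2% of all common sites. With 1 library left out it was 6 to 13 of 26 to 41 common sites, against 37.6% to 43.9%. By percentiles of the whole lists it was 0, where 1.70% of all common sites ranked lower and 25.3% higher. Without the middle of the second chromosome 6 window, which held 4 common sites, it was 2, against 28.2% of all common sites. With the replicate number as a block, 8 sites ranked lower and 13 higher, against 36.4% and 33.1% of all common sites. The numbers are not stated to pair libraries, and same-numbered deviations had a correlation of 0.264 over all 5829 common sites and 0.101 over the 26. The median change of -1.37 was -1.57 to -0.41 with 1 library left out, -0.24 for regions joined at 1000 bp and -6.94 by whole-list percentiles. By whole-list percentiles 7 named changes reversed, to -0.262 at 26172314, -4.78 at 27806085, -9.38 at 149815223, -19.4 at 27661788, -1.18 at 26027369, -0.349 at 149858315 and -0.339 at 26104280. The other reversals were at 4 sites with overlapping groups, where leaving out 1 library gave -0.752 to 0.130 at 26020722, -0.492 to 0.126 at 26032197, -0.289 to 0.157 at 26104280 and -0.800 to 7.80 at 27661788, the last also -1.05 with scores of at least 5. Lists cut to equal length left 44 sites in place of 92. With 1 library left out, 26 to 41 sites were common. Sites of palbociclib alone then numbered 1 to 16, and sites of activin alone 2 to 9. Joined at 100 bp there were 2 and 0 of these, joined at 1000 bp 0 of activin alone, and in equal-length lists, or with absence read over 2000 bp, 0 of either. No share over all sites stands beside these counts, so they cannot be read as a property of the windows. Sites missing only from activin replicate 2, 22.5% of all sites, count as palbociclib alone once activin replicate 1 is left out. The median range of summits, 86 bp, was 54 to 69 bp with 1 library left out, 56 bp at a joining distance of 100 bp and 117 bp at 1000 bp. Of 254 recomputed changes at the 20 named common sites, 14 changed sign and 223 kept their direction and their side of the call. Among the changes that kept their sign, a call was gained in 14 and lost in 3. The changes of sign were not sorted by call. By whole-list percentiles, the groups at 26172314 and 27806085 came to overlap as well, so calls were lost there too. Wider windows and the replicate block left the size of each change as it was. A site whose groups lie apart can hardly change sign with 1 library left out. These counts therefore do not measure how stable the sites are. The 1000 bp distance and the removal of the middle were chosen after seeing the data. Why values moved was not tested, and unequal list length limits every comparison of presence.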
